A study of Caenorhabditis elegans with 4 samples.

Results

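The genes described here are 9 genes of DNA replication in *C. elegans*, found by their listed names among 46096 genes: *mcm-2*, *mcm-3*, *mcm-4*, *mcm-5*, *mcm-6*, *mcm-7*, *pcn-1*, *rnr-1* and *rnr-2*. Their mRNA levels were followed through larval life of the *prg-1* mutant (*wm161*), altered in a gene of the Piwi Argonautes. RNA with a poly(A) tail came from whole worms at L1, L2, L3 and L4, with 1 library per stage, and all worms were grown at 20°C on OP50 bacteria. Wild-type worms were not analysed here, so the values describe the mutant alone and say nothing of an effect of *prg-1*.

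MCM2 to MCM7 form a ring of one copy each. The ring is loaded around DNA at origins before S phase and then unwinds the double helix at each fork. PCNA, the product of *pcn-1*, is the sliding clamp that holds DNA polymerases on their template. Ribonucleotide reductase, made of a large subunit (*rnr-1*) and a small subunit (*rnr-2*), converts ribonucleotides to the deoxyribonucleotides that the polymerases use. In the larva, S phase takes place in dividing blast cells, in the germline, and in intestinal and epidermal nuclei that raise their DNA content without dividing.

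The unit is FPKM, fragments per kilobase of transcript, normalised to the mapped fragments of the library, so that levels of different genes may be compared within a library. Values in parentheses are the 95% interval that the authors' Cufflinks files give, which covers error within a library only. All 36 values of the 9 genes had the status OK and lay within their own interval, whose half-width was 5.95% to 18.5% of the value. The depth of the L2, L3 and L4 libraries, judged from values below 1 FPKM, was 1.005, 1.038 and 1.053 times that of L1. *prg-1* itself was detected at every stage, with 11.02, 11.7, 13.0 and 23.6 FPKM in that order from L1 on, and a single value per gene does not separate an altered transcript from an intact one. With 1 library per stage there is no replicate check and no p-value. A rule of size was used to set stages side by side. It asks for a difference of 2-fold or more after 1 is added to each FPKM, for intervals that do not overlap, and for at least 1 FPKM in either stage.

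All 9 genes had their lowest level at L3, a pattern held by 20.1% of the 13596 protein-coding genes examined. For 8 of the 9 the highest level was at L1, and the exception was *rnr-2*. The 9 genes together summed to 417.9 FPKM in L1 worms, 291.1 in L2, 202.8 in L3 and 278.7 in L4. In 6 genes (*mcm-2*, *mcm-3*, *mcm-4*, *mcm-5*, *mcm-7* and *rnr-1*) every step stood clear of the intervals, with L2 below L1, L3 below L2 and L4 above L3. Of all 13596 genes, 36 (0.265%) followed that course, and these 6 are among them. The number of reads bears on this share, since genes at low levels have wide intervals that overlap more readily. Neither this course nor the low point at L3 was set in advance, so both shares are descriptions and not tests.

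**Figure D1:**
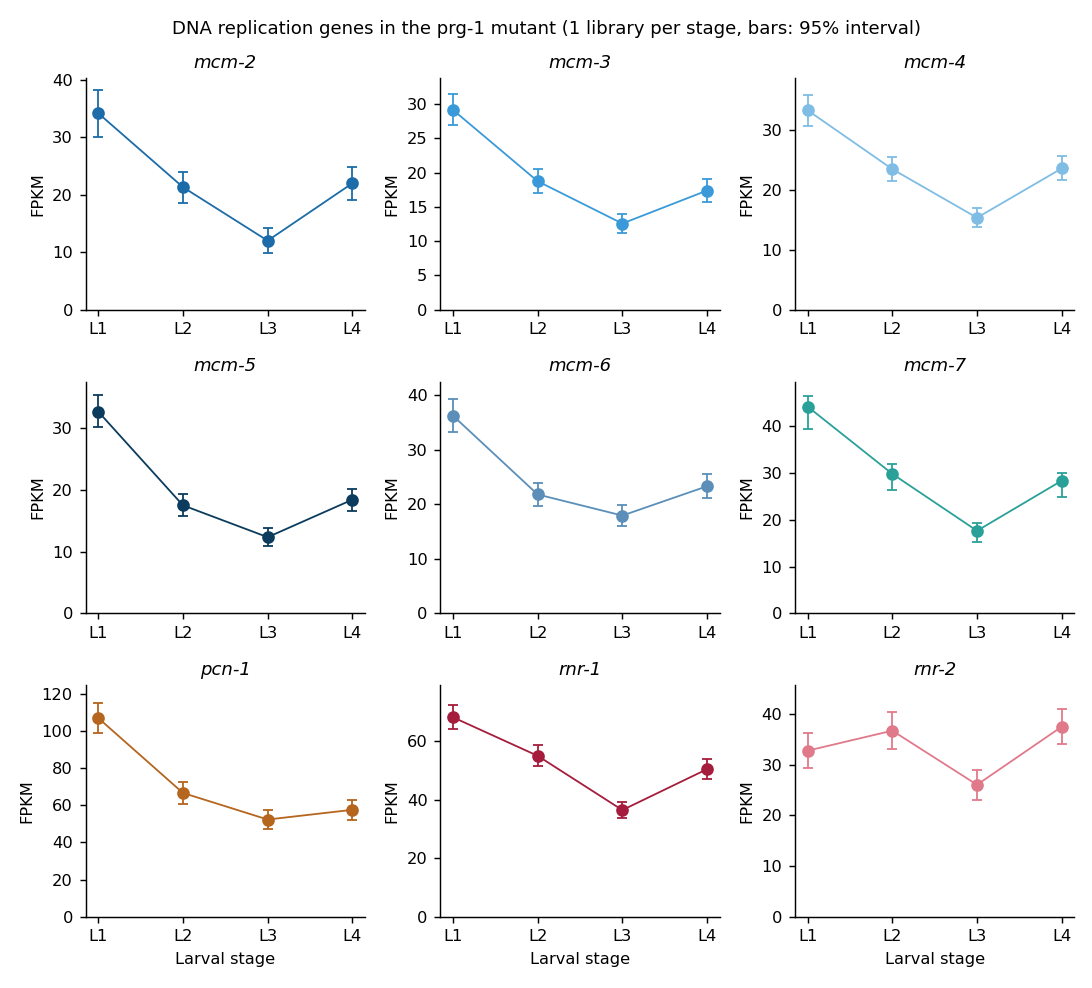
FPKM (vertical axes, each starting at 0) of the 9 DNA replication genes at the 4 larval stages, with bars for the 95% interval of each library. Every gene is lowest at L3, and *rnr-2* alone is not highest at L1.

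The helicase genes were lower at L2 than at L1 and higher at L4 than at L3 with intervals apart in all 6, and lower at L3 than at L2 with intervals apart in 5, the exception being *mcm-6*. *mcm-2* is listed on chromosome II from 12001510 to 12006625. It stood at 34.2 FPKM in L1 worms (30.2 to 38.3), 21.3 in L2 worms (18.7 to 24.0), 12.0 in L3 worms (9.80 to 14.3) and 22.0 in L4 worms (19.2 to 24.9). None of these intervals overlap except those of L2 and L4. Its level at L3 was 35.1% of that at L1, the lowest share among the 9 genes.

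*mcm-5*, on chromosome III from 4288260 to 4291283, stood at 32.7 FPKM in L1 worms (30.2 to 35.3), 17.5 in L2 worms (15.7 to 19.3), 12.3 in L3 worms (10.9 to 13.8) and 18.4 in L4 worms (16.7 to 20.2). At L2 it was already at 53.5% of its L1 level, the lowest share among the 9 genes at that stage. *mcm-7*, on chromosome V from 4347164 to 4349775, had the highest level of the helicase genes at L1, L2 and L4. It stood at 44.2 FPKM in L1 worms (39.4 to 46.4), 29.8 in L2 worms (26.3 to 31.8), 17.6 in L3 worms (15.3 to 19.3) and 28.4 in L4 worms (25.0 to 30.1). As in *mcm-2*, the intervals of L2 and L4 overlapped in both genes and the other stages stood apart.

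*mcm-3*, on chromosome V from 15056719 to 15059601, stood at 29.2 FPKM (26.9 to 31.5), 18.7 (17.0 to 20.5), 12.6 (11.2 to 14.0) and 17.4 (15.8 to 19.0) from L1 to L4. *mcm-4*, on chromosome I from 2318291 to 2321847, stood at 33.3 (30.7 to 35.9), 23.5 (21.4 to 25.6), 15.4 (13.8 to 17.0) and 23.6 (21.6 to 25.6) FPKM. In both genes the intervals of L2 and L4 overlapped and the other stages stood apart, and the L2 and L4 values of *mcm-4* were almost equal. *mcm-6*, on chromosome III from 9794367 to 9798645, stood at 36.2 (33.3 to 39.2), 21.8 (19.7 to 23.9), 17.9 (16.0 to 19.8) and 23.3 (21.1 to 25.5) FPKM. It had the smallest decline of the helicase genes, to 49.4% of its L1 level at L3, and its intervals at L2 and L3 overlapped.

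*pcn-1*, on chromosome IV from 4047929 to 4049450, was the most abundant of the 9 genes in every library. The clamp gene stood at 107.0 FPKM in L1 worms (99.0 to 115.1), 66.7 in L2 worms (60.7 to 72.7), 52.4 in L3 worms (47.3 to 57.5) and 57.6 in L4 worms (52.2 to 62.9). By rank it was 1895 of 15579 detected protein-coding genes at L3, against 1011 of 16362 at L1. It was the one gene of the 9 whose L4 level could not be told from its L3 level by the intervals. Its FPKM was 3.06, 3.02, 3.58 and 2.60 times the mean of the 6 helicase genes from L1 to L4.

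The subunits of ribonucleotide reductase differed in their course. *rnr-1*, on chromosome III from 9225374 to 9228786, stood at 68.2 FPKM in L1 worms (64.2 to 72.3), 55.0 in L2 worms (51.6 to 58.6), 36.5 in L3 worms (33.8 to 39.2) and 50.5 in L4 worms (47.2 to 53.8). *rnr-2*, on the same chromosome from 4093306 to 4094925, stood at 32.8 in L1 worms (29.4 to 36.2), 36.7 in L2 worms (33.1 to 40.3), 26.1 in L3 worms (23.1 to 29.0) and 37.5 in L4 worms (34.0 to 41.0). The large-subunit gene was highest at L1 and lowest at L3, like the helicase genes. The levels of the small-subunit gene at L1, L2 and L4 overlapped, and its L3 level lay below all of them.

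The ratio of *rnr-1* to *rnr-2* was therefore highest at L1. It was 2.08 in L1 worms, 1.499 in L2, 1.40 in L3 and 1.35 in L4. Taking the intervals of both genes at their extremes, the ratio was no less than 1.775 in L1 worms, and no more than 1.769 in L2, 1.70 in L3 and 1.58 in L4. The L1 ratio thus stood just outside the bounds at L2, and those of L2, L3 and L4 overlapped.

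**Figure D2:**
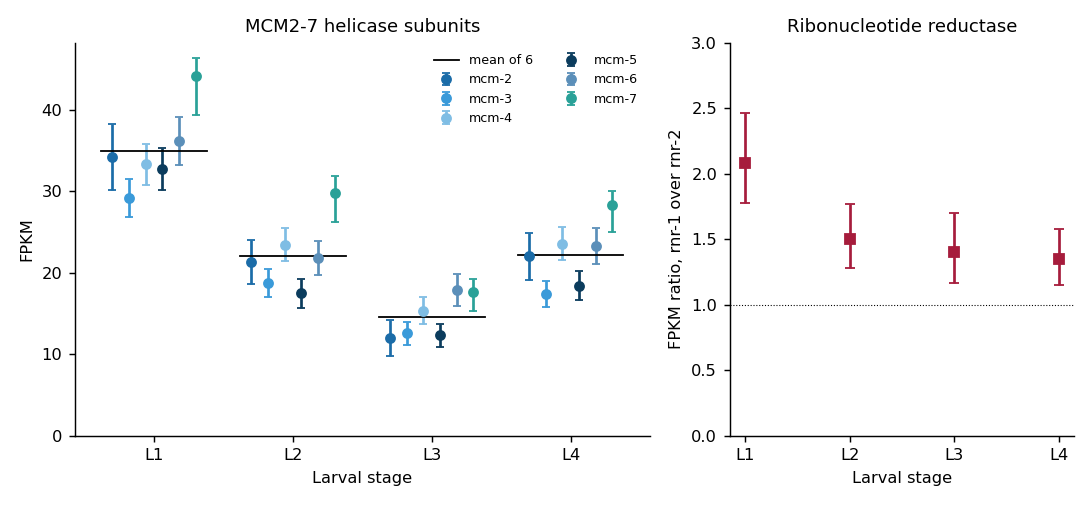
Left, FPKM of the 6 MCM genes by stage with 95% intervals (bars) and their mean (line). Right, the FPKM ratio of *rnr-1* over *rnr-2* by stage, with bars from the lowest to the highest ratio that both intervals allow. The MCM mean is lowest at L3, at 14.6 FPKM, and the reductase ratio is highest at L1, at 2.08.

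The 6 helicase genes stood close to each other in each library. Their mean was 35.0 ± 5.08 FPKM in L1 worms, 22.1 ± 4.35 in L2, 14.6 ± 2.70 in L3 and 22.2 ± 3.96 in L4, where ± is the SD over 6 genes and not over replicates. The coefficient of variation among them was 14.5%, 19.7%, 18.5% and 17.9% in stage order, and the highest gene was 1.49 to 1.70 times the lowest. Of the 15 pairs of helicase genes, 6 in L1 worms, 8 in L2, 6 in L3 and 8 in L4 had intervals apart. *mcm-7* stood above all 5 others in this way at L1 and L2, and above 3 of them at L3 and L4. In the order of levels neighbours overlapped in every library, except *mcm-7* and the gene next to it at L1 and L2. *mcm-2* was the lowest of 6 at L3 and the third at L1, taking 13.7% of the summed helicase FPKM at L3 against 16.3% at L1. *mcm-6* took 20.4% of that sum at L3 against 17.3% at L1.

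At L2 against L1, 8 of the 9 genes were lower with intervals apart, beside 16.5% of 13095 protein-coding genes. Their median log2 difference was -0.61, with a range of -0.86 (*mcm-5*) to 0.16 (*rnr-2*), and that of all genes was -0.12. *mcm-5* stood at 17.5 FPKM at L2 against 32.7 at L1, a ratio of 0.535 (0.445 to 0.640 by the intervals). *rnr-2* stood at 36.7 FPKM at L2 against 32.8 at L1, and these intervals overlapped. None of the 9 passed the rule of size in either direction, beside 2.59% of all genes that were lower and 7.01% that were higher.

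At L3 against L2, 8 of the 9 were again lower with intervals apart, beside 14.0% of 12800 genes. The median log2 difference was -0.54, against -0.03 over all genes. It ranged from -0.78 in *mcm-2*, at 12.0 FPKM at L3 against 21.3 at L2, to -0.27 in *mcm-6*, whose intervals overlapped. *rnr-2* was lower here together with the others, at 26.1 FPKM at L3 against 36.7 at L2. None passed the rule of size, beside 3.30% of genes that were lower and 1.73% that were higher.

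At L4 against L3, 8 of the 9 were higher with intervals apart, beside 11.7% of 12959 genes. The median log2 difference was 0.51, against 0.00 over all genes. The largest difference was that of *mcm-2*, at 22.0 FPKM at L4 against 12.0 at L3, a ratio of 1.83 (1.34 to 2.54). *pcn-1* had the smallest, at 57.6 FPKM at L4 against 52.4 at L3, a ratio of 1.10 (0.909 to 1.33). None passed the rule of size, beside 3.84% of genes that were higher and 0.532% that were lower.

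The L4 levels stood near those of L2 and below those of L1. At L4 against L2 the intervals of all 9 genes overlapped, beside 13.7% of 13140 genes that were higher and 15.1% that were lower with intervals apart. The ratios of L4 to L2 ran from 0.864 in *pcn-1* to 1.07 in *mcm-6*. At L4 against L1, 8 of the 9 were lower with intervals apart, beside 21.8% of 13346 genes. *pcn-1* stood at 57.6 FPKM at L4 against 107.0 at L1, which was 53.8% of its L1 level. *rnr-2* stood at 37.5 FPKM at L4 against 32.8 at L1, with overlapping intervals. None passed the rule of size, beside 4.67% of genes that were lower and 10.4% that were higher.

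The 2 extremes of the course are L3 and L1, a pair that was set side by side, like L4 and L2, after the values were seen. All 9 genes were lower at L3 than at L1 with intervals apart, beside 19.3% of 13066 genes. By the rule of size 6 fell, beside 3.20% of all genes, and none rose, beside 5.97%. The log2 differences of those 6 were -1.44 for *mcm-2*, -1.34 for *mcm-5*, -1.28 for *mcm-7*, -1.15 for *mcm-3*, -1.07 for *mcm-4* and -1.02 for *pcn-1*. *mcm-6* missed the threshold of 1 with -0.98, and *rnr-1* and *rnr-2* stood at -0.88 and -0.32. After median-ratio rescaling, which takes out about the shift of the median gene between these stages (-0.11), 4 passed, and *mcm-4* (-0.96) and *pcn-1* (-0.90) did not.

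**Figure D3:**
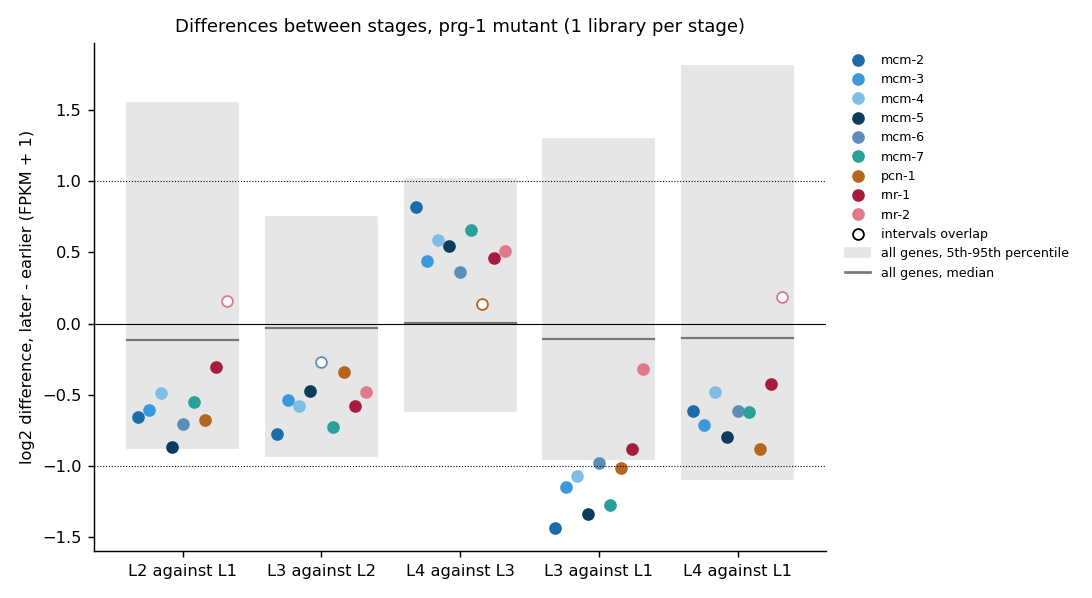
Log2 differences (later minus earlier stage, with 1 added to each FPKM) of the 9 genes for 5 pairs of stages in the *prg-1* mutant. Open circles mark overlapping intervals, grey boxes the 5th to 95th percentile of all protein-coding genes tested and grey lines their median, and the dotted lines mark a difference of 2-fold. At L3 against L1, 6 genes lie below -1.

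Other genes of DNA replication, together with 12 genes of S-phase control, were examined as 6 lists, 54 of whose 57 genes were found. Each of the 6 medians was below 0 at L2 against L1 and above 0 at L4 against L3, and at L3 against L2 all but that of nucleotide supply (0.02) were below 0. Over the 54 genes the medians for these steps were -0.33, -0.17 and 0.21, each nearer 0 than the median of the 9 genes. None of the 54 passed the rule of size between adjacent stages, beside 0.532% to 7.01% of all genes by step and direction. In 36 of the 54 the lowest level was at L3, beside 20.1% of all genes. This held for 7 of 8 genes of origin licensing, 4 of 10 of helicase activation and 7 of 8 of polymerases and primase. It held for 10 of 12 genes of fork processing, 2 of 4 of nucleotide supply and 6 of 12 of S-phase control. At L3 against L1, 33 of the 54 were lower with intervals apart and none was higher, beside 19.3% and 13.1% of all genes. By the rule of size *dut-1* alone fell, 1 of 54, beside 3.20% of all genes, so that no excess of the 54 was seen by that rule.

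Genes of origin licensing, which place the helicase on DNA, had medians of -0.26, -0.32 and 0.31 for the steps between adjacent stages. *cdc-6*, a loader of the MCM ring, varied little, at 15.2, 14.5, 14.0 and 16.1 FPKM in stage order with overlapping intervals. *gmn-1*, the geminin gene, stood at 11.3, 13.6, 8.13 and 12.3 FPKM. *orc-5*, of the origin recognition complex, stood at 13.6, 11.03, 7.92 and 9.27 FPKM. Neither gene had adjacent stages apart.

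The 10 genes of helicase activation had medians of -0.18, -0.17 and 0.18 for the 3 steps. *psf-1*, a subunit of GINS that joins the helicase, stood at 58.4, 71.0, 61.6 and 59.7 FPKM, and the intervals of all stages overlapped. *ctf-4* (listed as F17C11.10) stood at 14.4, 12.5, 8.64 and 12.5 FPKM, and *sld-5* (listed as Y113G7B.24), a GINS subunit, at 13.8, 8.80, 8.61 and 9.38. *sld-2* (listed as T12F5.1) fell by the rule of size at L4 against L1, at 3.62 FPKM at L4 against 8.68 at L1, a log2 difference of -1.07. It was the 1 gene of the 54 to fall at this pair, beside 4.67% of all genes.

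For the 8 genes of the replicative polymerases and primase the medians were -0.33, -0.23 and 0.38. *pola-1* (listed as Y47D3A.29), the catalytic subunit of polymerase alpha, stood at 12.8, 11.1, 7.37 and 12.7 FPKM. Its L3 interval (6.55 to 8.19) lay below those of the other stages. *pri-2*, of the primase, stood at 18.6, 16.4, 12.8 and 19.4 FPKM, and *pold-1* (listed as F10C2.4), of polymerase delta, at 18.3, 14.2, 13.2 and 14.7.

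The 12 genes of fork processing had medians of -0.37, -0.16 and 0.21, with 8 of them lower at L2 than at L1 with intervals apart, beside 16.5% of all genes. *rpa-1* and *rpa-2*, which coat single-stranded DNA, stood at 51.6, 35.2, 29.0 and 32.5 FPKM and at 57.8, 45.7, 40.7 and 46.6 FPKM. *top-1*, a topoisomerase, stood at 72.8, 58.9, 56.9 and 58.2 FPKM. *top-2* was the one gene of the 54 with all 3 steps clear of the intervals in the manner of the helicase, at 45.8, 37.4, 26.4 and 37.2 FPKM.

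Of the nucleotide-supply list, 4 genes were found. *dut-1*, a dUTPase, stood at 24.2, 13.1, 11.4 and 17.5 FPKM and fell at L3 against L1 with a log2 difference of -1.02. *tyms-1* (listed as Y110A7A.4), thymidylate synthase, stood at 47.7, 31.4, 25.8 and 27.1 FPKM, at L1, L2 and L3 above its own interval, so that its level is uncertain. *ndk-1*, a nucleoside diphosphate kinase that also serves other pathways, stood at 2552, 1983, 2519 and 2390 FPKM and did not have its lowest level at L3. Among 12 genes of S-phase control, with medians of -0.30, -0.10 and 0.21, *cye-1* (cyclin E) stood at 9.51, 10.1, 9.61 and 14.9 FPKM. *lin-35*, the retinoblastoma-like gene, stood at 17.6, 12.2, 11.1 and 13.0 FPKM. *cki-1*, an inhibitor of cyclin-dependent kinases, stood at 27.6, 30.7, 17.1 and 17.3 FPKM, each above its own interval.

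Of 12 mitotic genes, 10 were lowest at L3, beside 20.1% of all genes. Their medians were -0.18 at L2 against L1, -0.48 at L3 against L2 and 0.46 at L4 against L3. With intervals apart, 3 were lower at L2 than at L1, beside 16.5% of all genes, which is not far from this share. At the later steps 10 were lower at L3 than at L2, beside 14.0%, and 8 higher at L4 than at L3, beside 11.7%. *cyb-3*, a B-type cyclin, stood at 45.6, 45.2, 27.7 and 38.3 FPKM, and *plk-1*, a Polo kinase, at 32.6, 31.0, 19.4 and 25.0. *bir-1*, the survivin-like gene, stood at 55.9, 34.9, 37.6 and 29.8 FPKM, without a low point at L3. None of the 12 passed the rule between adjacent stages, beside 0.532% to 7.01% of all genes by step and direction. At L3 against L1 *cdk-1* (11.2 FPKM at L3 against 27.2 at L1) and *air-2* (7.42 against 16.1) fell. These are 2 of the 12, beside 3.20% of all genes. Whether the mitotic genes differ from the 9 replication genes was not tested.

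**Figure D4:**
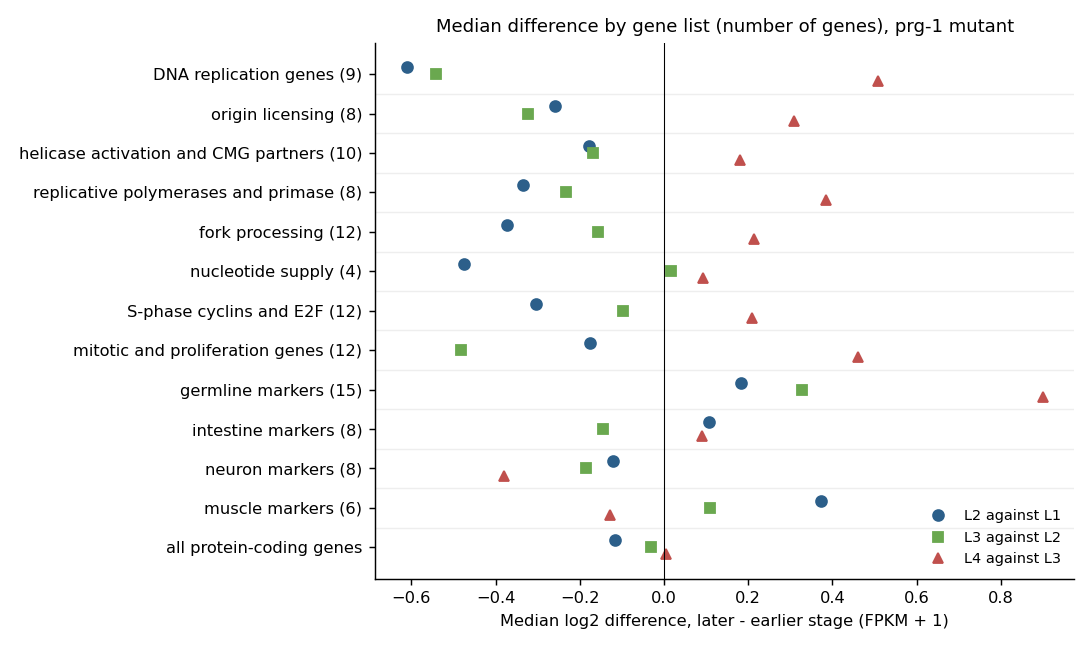
Median log2 difference (later minus earlier stage, with 1 added to each FPKM) at the 3 steps between adjacent stages for the 9 DNA replication genes, 11 other gene lists (number of genes found in parentheses) and all protein-coding genes. The 9 genes have medians of -0.61, -0.54 and 0.51, and the germline markers 0.18, 0.33 and 0.90.

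Markers of tissues of the worm were summed for each stage. The summed FPKM of 15 germline genes was 182.9, 189.3, 201.7 and 355.7 in stage order, and 7 of the 15 rose at L4 against L3 by the rule of size, beside 3.84% of all genes, among them *glh-1*, of the P granules, at 74.5 FPKM at L4 against 31.8 at L3. *gld-1*, a germline RNA-binding gene, was another, at 35.0 FPKM at L4 against 15.8 at L3. At L4 against L1, 12 of the 15 rose, beside 10.4%, among them *pgl-1*, of the P granules (26.4 FPKM at L4 against 6.69 at L1), *htp-3*, of meiotic chromosomes (8.64 against 1.88), and *glp-1*, the Notch receptor of the germline (7.80 against 1.48). *cgh-1* and *nos-3*, the others of highest level in this list, stood at 99.5 and 35.0 FPKM at L4 against 63.2 and 29.2 at L3. With intervals apart, 13 of the 15 were higher at L4 than at L1 and 1 was lower, beside 17.5% and 21.8% of all genes. The lower gene was *mex-3*, at 23.9 FPKM at L4 against 31.6 at L1. At L3 against L1, where all 9 replication genes were lower, 6 of the 15 markers were higher and 2 lower with intervals apart, beside 13.1% and 19.3% of all genes.

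The summed level of neuron markers, like that of the 9 replication genes, was lower at L2 than at L1 and lower at L3 than at L2, but at L4 it was lower again, where that of the 9 genes was higher. The 8 neuron genes summed to 1107, 851.0, 746.1 and 599.0 FPKM in stage order, which was 0.674 times the L1 sum at L3 and 0.541 times at L4. Of these sums *egl-3* and *egl-21* held 374.7 and 290.3 FPKM at L1, and 263.0 and 180.5 at L2. At L2 against L1, 3 of the 8 were lower and 0 higher with intervals apart, beside 16.5% and 13.0% of all genes. The median log2 difference at this step was -0.12, as over all genes. At L3 against L1, 4 of the 8 were lower with intervals apart and none was higher, beside 19.3% and 13.1% of all genes. The median log2 difference of the 8 was -0.39. *snb-1*, among those 4, lay above its own interval at both stages, at 256.2 FPKM at L1 (184.9 to 209.0). By the rule of size *egl-3* (172.3 FPKM at L4 against 374.7 at L1) and *egl-21* (124.8 against 290.3), which process neuropeptides, fell at L4 against L1, beside 4.67% of all genes. The 6 muscle genes summed to 1.53 times the L1 sum at L3 and 1.43 times at L4. All 6 were higher at L3 than at L1 with intervals apart, beside 13.1% of all genes. At L4 they were divided, with 4 higher and 2 (*myo-3* and *mup-2*) lower than at L1, beside 17.5% and 21.8%. *unc-27*, a troponin I gene, rose at L3 and at L4 against L1, at 600.3 and 577.7 FPKM against 259.8, but each of these values lay above its own interval. *myo-3*, *unc-54* and *unc-15* also lay outside their own intervals at L1, L3 or both, and at L4, so that their intervals are uncertain. Over 7 intestine genes the sum was 0.890 times that of L1 at L3 and 0.852 times at L4, with *end-3* listed at 0 at L2 and L3. *pept-1*, a failed estimate in 3 libraries, was left out of this sum. *act-5* held 1521 of its 2104 FPKM in L1 worms. Over the 6 intestine genes tested the median log2 differences were above 0, at 0.08 for L3 against L1 and 0.27 for L4 against L1. With intervals apart, 2 were lower and 0 higher at L3 against L1, beside 19.3% and 13.1% of all genes. At L4 against L1, 2 were lower and 1 higher, beside 21.8% and 17.5%. The part of tissue composition in the levels of the replication genes was not tested, and in RNA of whole worms fewer replicating cells and less RNA per cell cannot be told apart.

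The course of each gene was also set against the mean course of the other 8, as the distance between log2 values centred on their own mean over the 4 libraries. *mcm-4* was the closest at 0.0759, followed by *mcm-3* at 0.130 and *rnr-1* at 0.181, and *rnr-2* was the farthest at 0.702. Among 7788 other protein-coding genes with at least 5 FPKM in every library, the 5 closest to the mean course of the 9 genes were F11E6.7 (0.0996), *rfc-2* (0.118), F26E4.2 (0.140), *smc-4* (0.144) and W09G3.6 (0.154). F11E6.7, named *rif-1.1* in RefSeq, stood at 13.8, 8.43, 6.06 and 8.70 FPKM in stage order. *rfc-2*, a subunit of the loader that places PCNA on DNA, stood at 20.0, 13.9, 9.66 and 14.99 FPKM. *smc-4*, of the condensin complex, stood at 23.0, 16.9, 12.2 and 17.3 FPKM. F26E4.2 stood at 12.0, 8.43, 6.13 and 8.72 FPKM and W09G3.6 at 42.3, 31.7, 23.3 and 30.4. Between adjacent stages the intervals of *rfc-2*, F26E4.2 and W09G3.6 overlapped, so their single steps are not resolved. Likeness over 4 values is a description, and many genes may take such a course.

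Some of the 9 genes share bases with other listed genes, and the sources used here do not say how reads in such bases were assigned. *srxa-10* lies within the span of *mcm-6* and the snoRNA gene T23G5.7 within that of *rnr-1*, and both are listed at 0 in all 4 libraries. C25D7.16 shares 26 bases with *mcm-3* and was at most 0.432 FPKM. Y39G10AR.7 shares 15 bases with *mcm-4*, and stood higher at each later stage, at 0.845, 1.35, 1.85 and 3.59 FPKM. F32D1.3 shares 2 bases with *mcm-7* and stood at 4.23, 3.25, 2.72 and 2.30 FPKM. *mcm-2*, *mcm-5*, *pcn-1* and *rnr-2* overlap no other listed gene.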

How the data were processed

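Poly(A) RNA of *prg-1* mutant whole worms was sequenced in 1 library per larval stage. According to the submitters' processing notes, the authors aligned the reads using TopHat2 (2.0.8), with build ce10, and obtained expression values from Cufflinks (2.1.1). For the annotation version, the strand setting and reads with several matches, what was done is not given in the sources used here. Values were deposited by the authors as FPKM per gene with a 95% interval and a status. Reads were not counted anew.

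From these files, levels, ranks and differences were computed in pandas (2.3.3) and numpy (2.4.6) under Python (3.11.15), and plots were drawn in matplotlib (3.10.9). Failed estimates were left out of tests, and genes with one out of sums. Log2 differences were taken with a pseudocount of 1, which understates those of genes at low levels. The RefSeq table (WBcel235) named 19496 genes as protein-coding. Listed starts count from 0 and were raised by 1, after which all 15351 21U-RNA loci have the start and end of that table, so the build of the coordinates is uncertain. Named genes are the 9 genes, the 3 of highest mean FPKM in each list of cell-cycle or germline genes, up to 4 further genes of a list past the rule of size, and the 5 of most similar course. Where over 4 passed, those of highest mean FPKM were taken. *top-2*, *mex-3* and *mup-2* were named after their values were seen, and neuron, muscle and intestine genes are given as sums. Apart from *mup-2*, only those past the rule, listed at 0 or as failed, holding most of a sum or lying outside their own interval are named. The genes and lists were chosen with earlier results of these data known. The rule was tested on simulated data. Alternatives changed the pseudocount, filter, fold, scaling and use of the intervals. Promoter and protein sequences were not analysed here.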

Additional observations from a re-analysis of the deposited data

How the results depend on the processing

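No paired analysis was possible because the stages have single libraries. That *rnr-2* was not highest at L1, that all 9 genes were lowest at L3 and that 6 had every step clear of the intervals held with both rescalings. The choice of fold and the use of intervals cannot move a median. Under the other alternatives the medians of the 9 and of the 54 genes stayed within 1.5 times their value, except that after median-ratio rescaling that of the 54 at L4 against L1 was -0.19 in place of -0.31 and that of the 9 at L4 against L2, near 0 throughout, 0.014 in place of 0.007, and -0.013 with a common total. At 1.5-fold in place of 2-fold, which adds genes by construction, 5 of the 9 were lower at L2 against L1, 2 lower at L3 against L2, 3 higher at L4 against L3, 6 lower at L4 against L1 and 8 lower at L3 against L1, beside 6.31%, 7.35%, 6.78%, 12.0% and 8.33% of all genes. In the same order 7 and 2 of the 54 were lower, 5 higher, and 9 and 23 lower, with 1 higher at L4 against L1 (beside 14.1%) and 2 lower at L4 against L2 (beside 7.99%). At 4-fold none of the 9 or of the 54 passed at L3 against L1 (0 and 0), nor of the 54 at L4 against L1 (0). With a pseudocount of 0.1, 5 of the 54 were lower at L3 against L1, 1 was higher at L4 against L3, and *mcm-6* passed at L3 against L1 (-1.01). Rescaled to a common total in every library, the 9 genes summed to 340.0, 238.1, 166.2 and 224.7 from L1 to L4, 0 of the 54 were lower at L3 against L1, and the difference of *mcm-4* at L4 against L2 was -0.013 in place of 0.007. After median-ratio rescaling 0 of the 54 were lower at L3 against L1 and 0 at L4 against L1. The depth limits the intervals of the 9 genes to 5.95% of the value at best, and the spread between cultures is unknown.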

Other observations

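The 30 other genes whose intervals stood apart at all 3 steps, with L2 below L1, L3 below L2 and L4 above L3, were looked at by name after their values were seen, and no list was tested. They include genes of chromosomes and of the cytoskeleton, and genes of neither kind, such as *rme-8*, *rpn-2*, *sec-24.1*, *cct-4*, *gst-7* and *swt-3*. *gst-7* lay above its own interval at every stage and *swt-3* at L1 and L4, so that their intervals are uncertain. The genes given below were picked from the 30 and do not stand for the rest. *lin-53*, which encodes a histone-binding protein, stood at 70.5, 49.7, 38.3 and 46.2 FPKM in stage order, and *hcp-1*, of the kinetochore, at 14.3, 11.4, 7.52 and 10.5. The tubulin genes *tba-2* and *tbb-2* stood at 995.8, 893.2, 763.3 and 826.0 FPKM and at 1120, 1075, 924.0 and 1038 FPKM, so that at these high levels steps far smaller than those of the helicase genes were apart. *nmy-2*, a non-muscle myosin of cell division, stood at 39.6, 33.8, 24.4 and 31.9 FPKM. *ama-1*, the large subunit of RNA polymerase II, stood at 63.2, 57.7, 44.5 and 58.1 FPKM. The collagen gene *col-51* also met the pattern, with 2.83 FPKM in L1 worms and 0.148 in L3 worms, but its highest level was at L4 and not at L1.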
